A study of Mus musculus with 12 samples.

Results

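The genes described here are the CXC chemokines and receptors that lie outside the CXCR2 system: the ligands Cxcl9, Cxcl10, Cxcl11, Cxcl12, Cxcl13, Cxcl14, Cxcl16 and Cxcl17 and the receptors Cxcr3 and Cxcr4. They are 10 of the 19938 genes that the arrays measured with a transcript cluster carrying a single gene symbol, and each of the 10 had 1 such cluster. Expression was measured in the endometrium of CBAF1 females, the F1 offspring of CBA and C57Bl/6 mice, on 12 Affymetrix Mouse Gene 1.0 ST arrays. Virgin estrus females that had not been mated served as controls on 4 arrays, 4 arrays held females mated 8 h earlier with Vasectomised Balb/c males, and on the other 4 arrays the males were Intact Balb/c males. Females were 9 to 16 weeks old and males 12 to 28 weeks old, with vasectomy done at 6 to 8 weeks of age. Both kinds of male deliver seminal plasma, and the intact males deliver sperm as well. According to the paper, vasectomy also removes secretions of the testes, epididymis and vas deferens. The paper adds that the surgery might slightly change the accessory gland secretions. Differences between the mated groups therefore cannot be assigned to sperm alone. Each array held RNA pooled from 4 females, so the variation between arrays is that of pools rather than of single animals. According to the methods, unmated controls were collected in pro-estrus at 2000 h. Mated females were caged with males later on the night of pro-estrus and collected 8 h after mating. The hour of collection and the point in the estrous cycle therefore differ along with mating in every comparison with controls. The effects of hour, cycle and mating cannot be told apart.

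Chemokines are small secreted proteins that direct leukocyte migration through receptors coupled to G proteins. The CXC ligands of CXCR2 recruit neutrophils, whereas CXCL9, CXCL10 and CXCL11 are induced by interferons and draw activated T cells and NK cells through CXCR3. CXCL12 acts through CXCR4 in retention and homing of many leukocytes, CXCL13 guides B cells through CXCR5, CXCL16 is made as a membrane protein that is shed and binds CXCR6, and CXCL14 and CXCL17 are produced mainly by epithelia.

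Values are the deposited log2 expression values, and differences are log2 fold-changes between group means with their standard error (SE). Calls (higher or lower) required a 1.5-fold difference or more and, in limma over 35556 clusters, an adjusted p of 0.05 or less. Counts of genes at an unadjusted p under 0.05 are given without the share of all clusters under it, so they are description only. Array medians lay between 7.25 and 7.32, and correlations between arrays of the same group were 0.983 or higher. The median mean value over clusters was 7.28, and Cxcl9, Cxcl11, Cxcl12, Cxcl13 and Cxcr3 had means below it. Epithelial markers lay above that median in 9 of 9 measured and stromal markers in 11 of 11, and so did 6 of 6 smooth muscle markers (mean 9.09 to 10.08 over the arrays), which mark the muscle layer under the endometrium. The 4 control arrays lay in pairs. On the second principal component controls 1 and 2 scored 11.0 and 16.7, and controls 3 and 4 scored -31.3 and -22.0. Several members differ between these pairs, and their values with either pair alone are given with the results. The pairs were seen in these same data. Calls made with 1 pair alone therefore show how far a result depends on the controls used and are not separate evidence.

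Of the 10 genes, Cxcl10, Cxcl16 and Cxcr4 were higher after mating with intact males than in controls, and 0 were lower. For comparison, 1.95% of all clusters were called higher and 1.55% lower in that comparison. After mating with vasectomised males Cxcl10 and Cxcl16 were higher and 0 genes were lower, against 0.987% and 0.439% of clusters. In the direct comparison of intact with vasectomised mating limma called 0 of the 10 genes in either direction, against 0.394% of clusters higher and 0.402% lower, and 1 gene, Cxcl16, had an unadjusted p under 0.05. The median log2 fold-change of the 10 genes was 0.13, -0.02 and 0.14 in these comparisons, beside 0.01, 0.01 and -0.00 for all clusters. Both comparisons with controls use the same 4 control arrays. Counted against controls 1 and 2 alone, 2 genes were higher and 1 lower after intact mating and 0 were higher and 1 lower after vasectomised mating, and against controls 3 and 4 alone 3 were higher and 0 lower in each. The shares above belong to the fit with all 4 controls. The shares of all clusters called with 1 pair alone are not given, so the counts with 1 pair cannot be set against a share. In whole tissue, fewer cells of a type and less RNA per cell cannot be told apart.

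**Figure D1:**
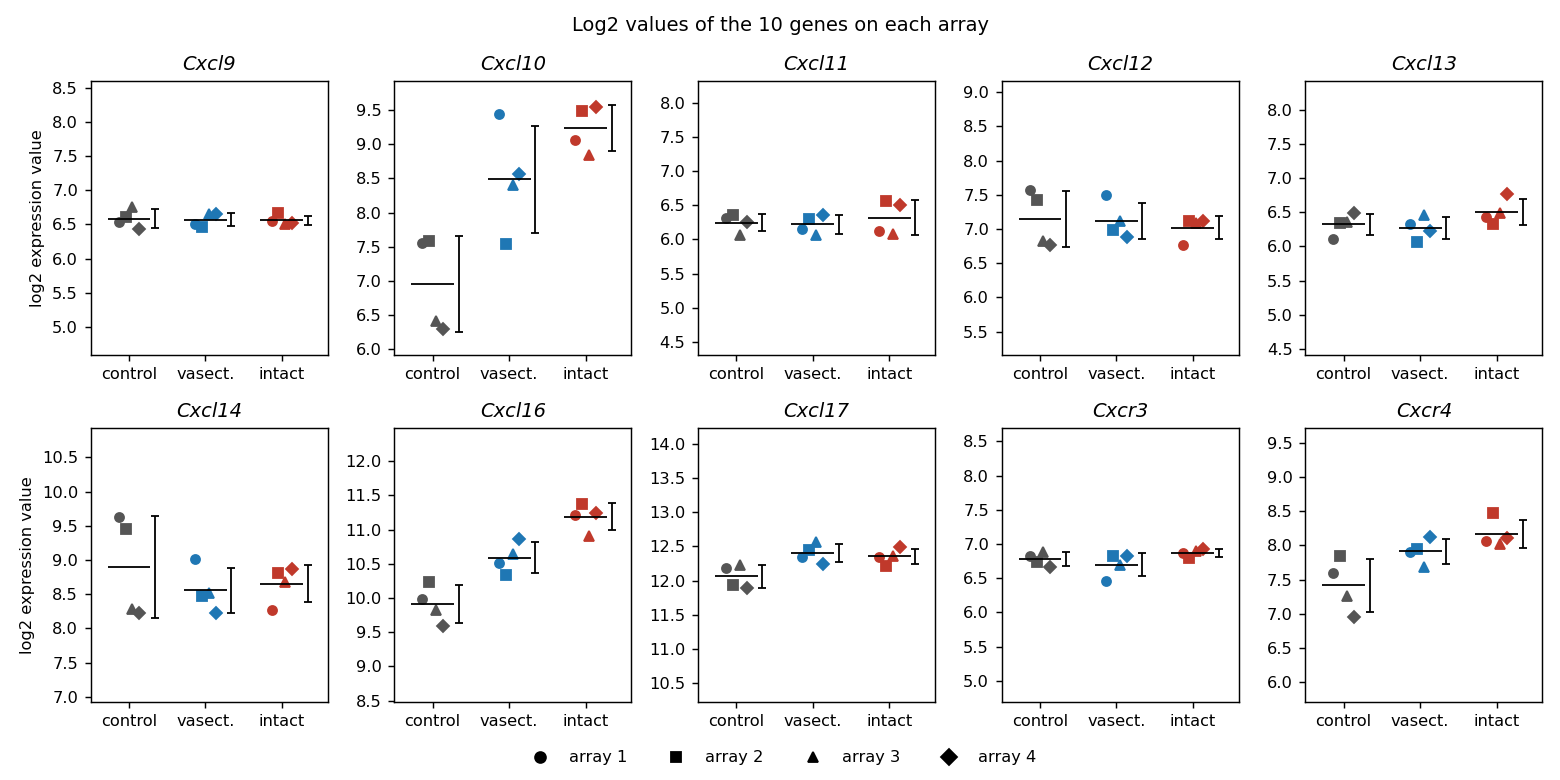
Log2 expression value of each of the 10 genes on each array (vertical axis, 4 log2 units in every panel) in control, vasectomised-mated (vasect.) and intact-mated females. Symbols give the array number, lines the group mean and bars 1 SD (n = 4 arrays per group). The means of Cxcl10, Cxcl16 and Cxcr4 are lowest in controls and highest after intact mating, and controls 1 and 2 sit above controls 3 and 4 for Cxcl10, Cxcl12, Cxcl14, Cxcl16 and Cxcr4.

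Cxcl10, a chemoattractant for activated T cells and NK cells through CXCR3, had the largest difference of the 10 genes. Its log2 values were 7.55, 7.58, 6.41 and 6.30 on control arrays 1 to 4. They were 9.45, 7.54, 8.40 and 8.56 on the vasectomised arrays and 9.07, 9.48, 8.83 and 9.55 on the intact arrays. Every intact array lay above every control array, whereas vasectomised array 2 fell among the controls and vasectomised array 1 among the intact arrays. Group means were 6.96 ± 0.70 (SD, n = 4) in controls, 8.49 ± 0.78 after vasectomised mating and 9.23 ± 0.34 after intact mating. Cxcl10 was 4.83-fold higher after intact mating than in controls (log2 fold-change 2.27, SE 0.39, 95% interval 1.43 to 3.12, limma adjusted p = 0.00268). After vasectomised mating it was 2.88-fold higher (log2 fold-change 1.53, SE 0.39, 95% interval 0.68 to 2.37, limma adjusted p = 0.0483). Cxcl10 was thus called higher with either kind of male. Intact exceeded vasectomised by 0.75 log2 units (SE 0.39, 95% interval -0.10 to 1.59, limma adjusted p = 0.354), which did not pass the threshold and allows anything from a slight decrease to a 3.02-fold increase.

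The 2 comparisons of Cxcl10 with controls differed in how far they depended on single arrays. With controls 1 and 2 alone, the intact difference was 1.67 (limma adjusted p = 0.0271), and with controls 3 and 4 alone it was 2.88 (limma adjusted p = 0.00163). The vasectomised difference was 0.92 (limma adjusted p = 0.257) with controls 1 and 2 alone and 2.13 (limma adjusted p = 0.0141) with controls 3 and 4 alone. The vasectomised call was lost in 9 of 12 fits that left out 1 array: control 3 or 4, vasectomised 1, 3 or 4, or any intact array (limma adjusted p 0.0617 to 0.127).

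Cxcl9 and Cxcl11 encode the other ligands of CXCR3, and their genes are neighbours of Cxcl10 on chromosome 5. Neither was called in any of the 3 comparisons. Cxcl9 lay between 6.44 and 6.76 on all 12 arrays and Cxcl11 between 6.06 and 6.57. All 3 groups overlapped for both genes. Cxcl9 differed from controls by -0.03 (SE 0.08, 95% interval -0.20 to 0.14, limma adjusted p = 0.902) after intact mating and by -0.02 (95% interval -0.19 to 0.15, limma adjusted p = 0.937) after vasectomised mating. Cxcl11 differed by 0.07 (SE 0.12, 95% interval -0.18 to 0.33, limma adjusted p = 0.787) after intact mating and by -0.03 (95% interval -0.28 to 0.23, limma adjusted p = 0.939) after vasectomised mating. These intervals leave out a difference the size of the 1.5-fold threshold for both genes on this scale. Both had means below the median of clusters, and whether their probes respond to transcript was not tested. RefSeq lists Cxcl11 as a transcribed pseudogene in the C57BL/6J reference.

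The receptor Cxcr3, carried by activated T cells and NK cells, lay between 6.46 and 6.93 on all arrays. Vasectomised array 1 held the lowest value, and the groups overlapped. Its difference from controls was 0.09 (SE 0.09, 95% interval -0.09 to 0.28, limma adjusted p = 0.596) after intact mating and -0.08 (95% interval -0.27 to 0.11, limma adjusted p = 0.686) after vasectomised mating. Intact exceeded vasectomised by 0.17 (95% interval -0.02 to 0.36, limma adjusted p = 0.336). Of 14 measured T cell and NK cell markers 0 were called in any comparison by limma, with 2, 1 and 1 at an unadjusted p under 0.05 for intact against control, vasectomised against control and intact against vasectomised. Only 2 of the 14 had means above the median of clusters. Their mean log2 value per array was 6.23 to 6.63 in controls, 6.27 to 6.46 after vasectomised mating and 6.32 to 6.42 after intact mating, so the groups overlapped.

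The promoter sequences of Cxcl9 and Cxcl10 are shown because these neighbouring genes are both known as interferon targets, yet their measured differences were far apart. They are the 250 bases before the annotated start, from RefSeq on GRCm38.p6, at chr5:92328080-92328329 for Cxcl9 and chr5:92348890-92349139 for Cxcl10, both read on the minus strand. Capitals mark matches to the core of the interferon-stimulated response element (ISRE, GAAANNGAA) and to the NF-kB motif.
Cxcl9: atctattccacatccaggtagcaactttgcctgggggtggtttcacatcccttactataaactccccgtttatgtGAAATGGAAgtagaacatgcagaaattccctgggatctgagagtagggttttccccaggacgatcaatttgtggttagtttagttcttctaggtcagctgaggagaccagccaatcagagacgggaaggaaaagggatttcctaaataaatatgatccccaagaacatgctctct
Cxcl10: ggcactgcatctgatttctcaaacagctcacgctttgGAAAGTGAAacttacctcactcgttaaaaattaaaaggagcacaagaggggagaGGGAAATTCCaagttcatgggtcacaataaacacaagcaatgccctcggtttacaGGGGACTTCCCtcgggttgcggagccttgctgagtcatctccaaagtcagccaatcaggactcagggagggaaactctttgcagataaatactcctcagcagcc

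Both windows held 1 ISRE core, starting 213 bases before the start of Cxcl10 and 175 bases before that of Cxcl9. The Cxcl10 window also held 3 matches to NF-kB, the first base at 159, 104 and 103 before the start, of which the last pair overlap, and 1 match to AP-1 (TGANTCA) at 74. The Cxcl9 window held none of the NF-kB, AP-1 or GAS (TTCNNNGAA) letters but 1 TATA box (TATAAA) at 195, and the Cxcl10 window held neither GAS nor TATA box letters. Searched on both strands of all 32851 promoter windows of this length, ISRE core was found in 7.13%, GAS in 7.02%, NF-kB in 7.25%, AP-1 in 6.75% and the TATA box in 12.4%. Promoters were matched for 7 of the 10 genes, and Cxcl11, Cxcl16 and Cxcl17 had none in the table. Among the other 5 matched genes Cxcl14 held 1 ISRE core and 1 GAS match, Cxcl13 held 1 TATA box and Cxcr4 held 2, and Cxcl12 and Cxcr3 held no letters of the 5 motifs. Only exact matches were counted, so near matches are left out. A match describes the letters of a window and not a bound site, and whether these letters bear on the measured differences was not tested.

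Cxcl16, which binds CXCR6 on T cells and NKT cells and also serves as a scavenger receptor in its membrane form, rose in both mated groups. Its log2 values were 9.99, 10.24, 9.83 and 9.59 on the control arrays, 10.52, 10.34, 10.64 and 10.87 on the vasectomised arrays and 11.22, 11.38, 10.91 and 11.25 on the intact arrays. None of the 3 groups overlapped another, in the order control, vasectomised, intact. Group means were 9.91 ± 0.28, 10.59 ± 0.22 and 11.19 ± 0.20 (SD, n = 4). Cxcl16 was 2.43-fold higher after intact mating than in controls (log2 fold-change 1.28, SE 0.15, 95% interval 0.95 to 1.60, limma adjusted p = 0.000183). After vasectomised mating it was 1.6-fold higher (log2 fold-change 0.68, SE 0.15, 95% interval 0.35 to 1.00, limma adjusted p = 0.0258).

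The step of Cxcl16 from vasectomised to intact mating was 1.52-fold (log2 fold-change 0.60, SE 0.15, 95% interval 0.27 to 0.92), with an unadjusted p of 0.00166 and a limma adjusted p of 0.0579. It passed the threshold in 9 of 26 alternative fits, among them array weights (limma adjusted p = 0.0251) and a fit of the 2 mated groups alone (limma adjusted p = 0.0386), and its log2 fold-change ranged from 0.52 to 0.69 over all 26 (limma adjusted p 0.0251 to 0.155). With controls 1 and 2 alone the differences from control were 1.07 (limma adjusted p = 0.00238) for intact and 0.47 (limma adjusted p = 0.138) for vasectomised mating. With controls 3 and 4 alone they were 1.48 (limma adjusted p = 0.000301) and 0.88 (limma adjusted p = 0.011). The vasectomised call was also lost without control 3 or 4 or without vasectomised 1, 3 or 4 (limma adjusted p 0.0505 to 0.0778).

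The receptor of CXCL16, Cxcr6, was not called in any comparison. Its group means were 5.81 ± 0.18 in controls, 5.81 ± 0.15 after vasectomised and 5.78 ± 0.14 after intact mating (SD, n = 4). The difference from controls was -0.03 (95% interval -0.26 to 0.20, limma adjusted p = 0.912) after intact mating and 0.00 (95% interval -0.23 to 0.23, limma adjusted p = 0.993) after vasectomised mating. Adam10 and Adam17, proteases that release CXCL16 from the membrane, were not called in any comparison.

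**Figure D2:**
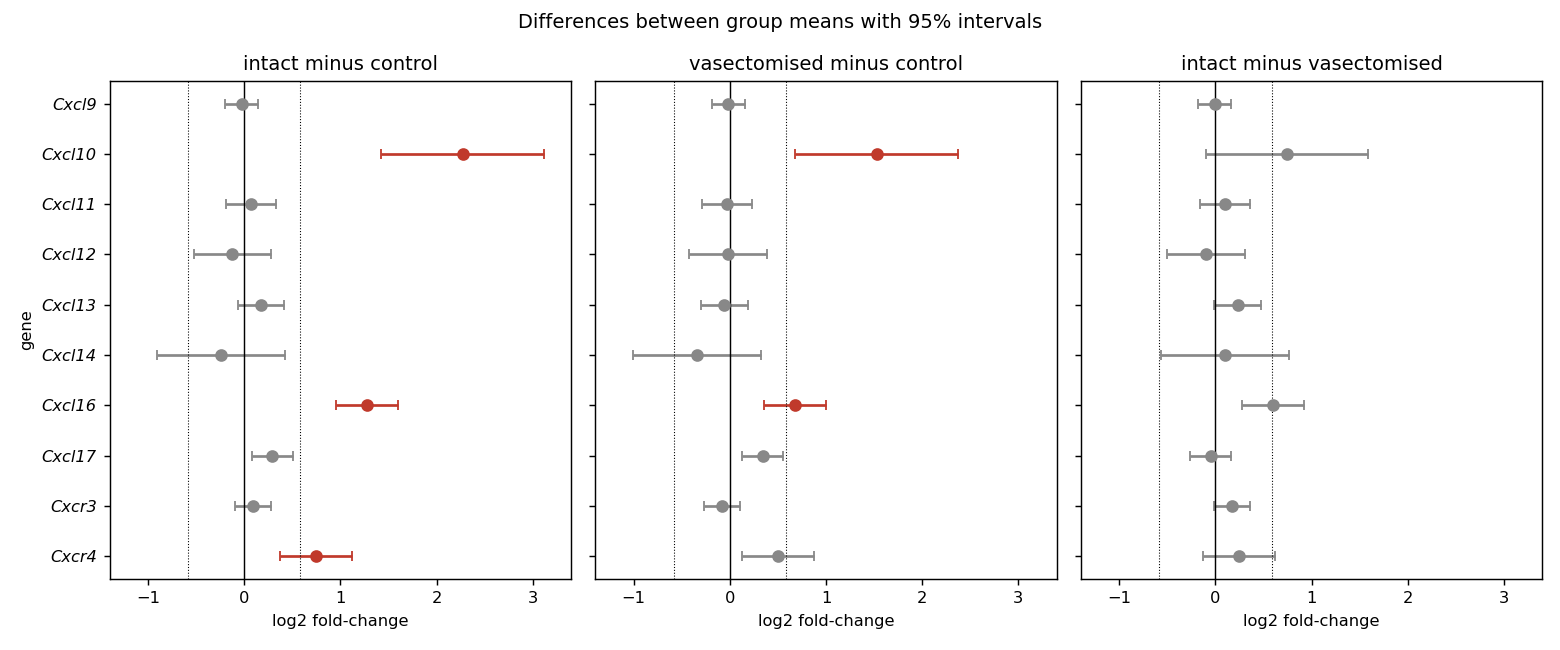
Log2 fold-change of each gene (horizontal axis) with its 95% interval from limma in the 3 comparisons, 4 arrays per group. Red marks called genes, grey those not called, and dotted lines the 1.5-fold threshold. Cxcl10 and Cxcl16 are called in both comparisons with controls and Cxcr4 in the intact comparison, while no gene is called between the mated groups.

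Cxcr4 encodes the receptor of CXCL12 and is found on most leukocytes and on several tissue cells. Its log2 values were 7.59, 7.84, 7.26 and 6.96 on the control arrays, 7.91, 7.94, 7.68 and 8.12 on the vasectomised arrays and 8.06, 8.47, 8.01 and 8.11 on the intact arrays. The intact arrays lay above every control array, while vasectomised array 3 fell below control 2 and the mated groups overlapped. Group means were 7.41 ± 0.38, 7.91 ± 0.18 and 8.16 ± 0.21 (SD, n = 4). Cxcr4 was 1.68-fold higher after intact mating than in controls (log2 fold-change 0.75, SE 0.17, 95% interval 0.37 to 1.12, limma adjusted p = 0.0157). After vasectomised mating the difference was 0.50 (SE 0.17, 95% interval 0.13 to 0.87, limma adjusted p = 0.136), and intact exceeded vasectomised by 0.25 (95% interval -0.13 to 0.62, limma adjusted p = 0.504). The difference of Cxcr4 from controls was thus called with intact males and not with vasectomised males, but a difference between the mated groups did not pass the test.

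With controls 1 and 2 alone the intact difference of Cxcr4 was 0.44 (limma adjusted p = 0.0872) and no longer called, and with controls 3 and 4 alone it was 1.05 (limma adjusted p = 0.00194). The vasectomised difference was called with controls 3 and 4 alone (0.80, limma adjusted p = 0.0142) and without control 2 (0.64, limma adjusted p = 0.0423). Some neutrophil markers were higher after intact mating. The mean log2 value of all 12 measured per array was 6.14 to 6.30 in controls, 6.20 to 6.43 after vasectomised mating and 6.55 to 6.93 after intact mating. Of these S100a9, Csf3r, Cxcr2 and Trem1 were called higher in intact mating against either other group. The shares of all clusters called higher were 1.95% against controls and 0.394% against vasectomised mating. The median log2 fold-change over the 12 was 0.22 against controls and 0.09 against vasectomised mating. The other 8 were not called, among them Ly6g, a granulocyte surface marker, at -0.44 against controls (limma adjusted p = 0.33) and -0.27 against vasectomised mating (limma adjusted p = 0.633). The control mean of Ly6g was 10.02, beside 6.23 for the list, and whether its probes report Ly6g alone was not tested. S100a8 differed by 0.47 (limma adjusted p = 0.0241) and 0.49 (limma adjusted p = 0.049) in the same order, under the fold threshold. In vasectomised mating against controls limma called 0 of the 12, with 0 at an unadjusted p under 0.05. The part of neutrophils in the values of Cxcr4, Cxcl10 and Cxcl16 was not tested.

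Cxcl12, the ligand of CXCR4 and a product of stromal cells, was not called in any comparison. It lay between 6.76 and 7.56 in controls, 6.88 and 7.49 after vasectomised mating and 6.77 and 7.11 after intact mating. The groups overlapped. Its differences from controls were -0.12 (SE 0.19, 95% interval -0.53 to 0.28, limma adjusted p = 0.774) for intact and -0.02 (95% interval -0.43 to 0.38, limma adjusted p = 0.969) for vasectomised mating. Ackr3, an atypical receptor that takes up CXCL12 and CXCL11 without G protein signalling, was lower after vasectomised mating (7.38 ± 0.07) than in controls (7.97 ± 0.10, SD, n = 4). That difference was -0.59 (SE 0.09, limma adjusted p = 0.00311). After intact mating the Ackr3 difference was -0.44 (SE 0.09, limma adjusted p = 0.00666), under the fold threshold, and the intact and vasectomised groups differed by 0.15 (95% interval -0.04 to 0.34, limma adjusted p = 0.41).

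Cxcl14, an epithelial and stromal chemokine that attracts monocytes and dendritic cells, varied most among the control arrays. Its log2 values were 9.63, 9.45, 8.28 and 8.22 on the control arrays, 9.02, 8.47, 8.51 and 8.22 on the vasectomised arrays and 8.27, 8.81, 8.67 and 8.87 on the intact arrays. Controls 1 and 2 lay above every mated array, and controls 3 and 4 at or near the bottom of the mated range. Over all 4 controls the difference was -0.24 (SE 0.31, 95% interval -0.91 to 0.42, limma adjusted p = 0.72) for intact and -0.34 (SE 0.31, limma adjusted p = 0.608) for vasectomised mating. With controls 1 and 2 alone Cxcl14 was called lower, at -0.89 (limma adjusted p = 0.0251) and -0.99 (limma adjusted p = 0.0333). With controls 3 and 4 alone the direction turned, at 0.40 (limma adjusted p = 0.286) and 0.30 (limma adjusted p = 0.401). No direction can therefore be given for Cxcl14.

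This split ran through other members too. Controls 1 and 2 lay both above controls 3 and 4 for 6 of the 10 genes, against 19.9% of all clusters, and both below for 1, Cxcl13. The difference between the pair means was 1.29 log2 units for Cxcl14, 1.21 for Cxcl10, 0.70 for Cxcl12, 0.61 for Cxcr4, 0.41 for Cxcl16 and 0.17 for Cxcl11. For Cxcl14 and Cxcl10 it was at least 1, against 0.97% of clusters. Cxcl12 turned direction with the pair as Cxcl14 did. Its intact difference was -0.47 (limma adjusted p = 0.0925) with controls 1 and 2 alone and 0.23 (limma adjusted p = 0.452) with controls 3 and 4 alone, and its vasectomised difference was -0.37 (limma adjusted p = 0.252) and 0.33 (limma adjusted p = 0.238). With either pair, Cxcl9 stayed between -0.04 and -0.01, Cxcr3 between -0.08 and 0.10, Cxcl11 between -0.11 and 0.16 and Cxcl13 between -0.15 and 0.27 in both comparisons with controls, and none of these 4 was called. Stromal markers differed between the pairs, with a mean log2 value of 10.55, 10.52, 9.85 and 9.83 on controls 1 to 4. Macrophage and dendritic cell markers, with 8.41, 8.51, 7.79 and 7.62, and blood endothelial markers, with 8.02, 8.00, 7.16 and 7.10, ran the same way. Smaller gaps in that direction were seen for T cell and NK cell markers (6.63, 6.39, 6.31 and 6.23), B cell and plasma cell markers (6.43, 6.37, 6.29 and 6.30) and lymphatic endothelial markers (7.21, 7.25, 6.98 and 7.03). Platelet markers (6.85, 6.72, 7.27 and 7.25) and fat and mesothelial markers (6.87, 6.94, 7.13 and 7.11) were lower on controls 1 and 2. Their part in these differences was not tested.

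**Figure D3:**
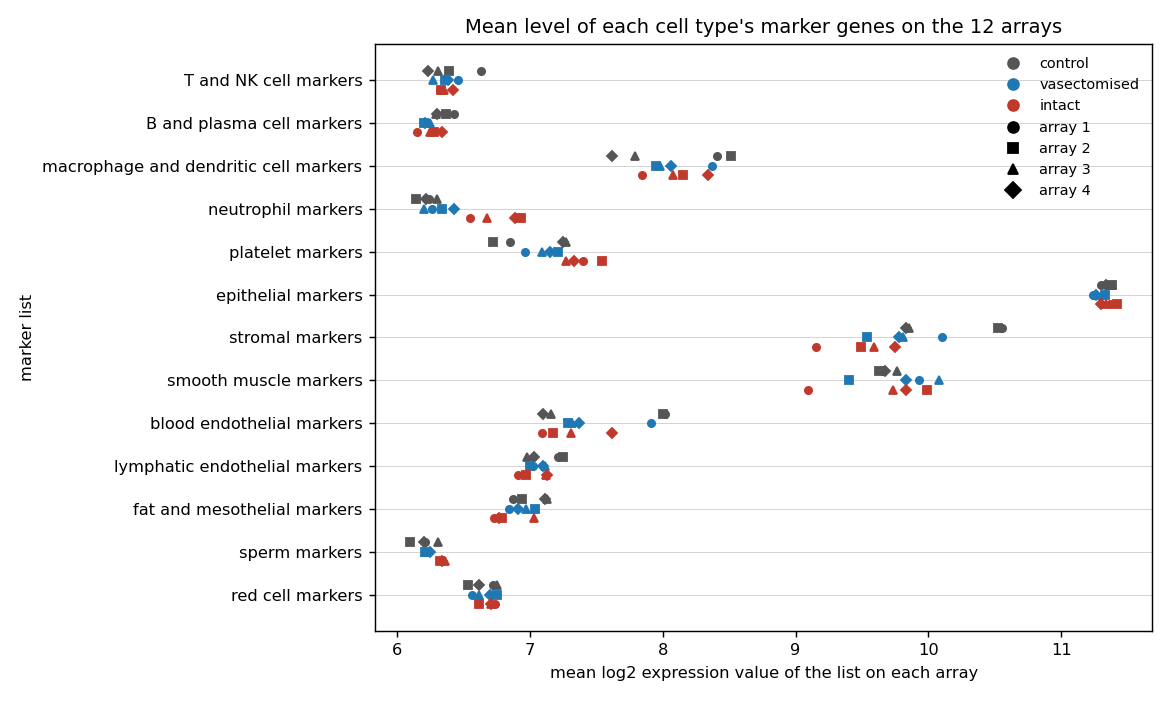
Mean log2 expression value of each marker list (horizontal axis) on each of the 12 arrays, coloured by group, with symbols for the array number. Levels of different lists are not comparable. Controls 1 and 2 sit above controls 3 and 4 for stromal, macrophage and dendritic cell and blood endothelial markers, and the neutrophil markers of the intact arrays (6.55 to 6.93) sit above all others (6.14 to 6.43).

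On the mated arrays stromal markers averaged 9.54 to 10.10 on the vasectomised and 9.15 to 9.75 on the intact arrays, against 9.83 to 10.55 in controls. Every intact array thus lay below every control array. Against controls, the log2 fold-changes ran from -1.99 to -0.13 (median -0.62) after intact mating. After vasectomised mating they ran from -1.34 to 0.01 (median -0.35). In limma, 9 and 2 of the 11 had an unadjusted p under 0.05 in the same order. Of 11 stromal markers Col1a1, Lum and Pgr were called lower in intact mating against controls and Pgr in vasectomised mating against controls. The shares of all clusters called lower in these comparisons were 1.55% and 0.439%. Macrophage and dendritic cell markers averaged 7.95 to 8.37 and 7.84 to 8.34 on the mated arrays, within the control range. Of 14 such markers Cd14 was called higher in both comparisons with controls. The shares of all clusters called higher were 1.95% for intact and 0.987% for vasectomised mating. Blood endothelial markers averaged 7.29 to 7.91 on the vasectomised and 7.09 to 7.62 on the intact arrays, and 0 of 7 were called in any comparison by limma, with 0 at an unadjusted p under 0.05. Platelet markers averaged 6.96 to 7.21 and 7.27 to 7.54, against 6.72 to 7.27 in controls. Of 4 such markers Ppbp was called higher in intact mating against controls, by 1.25 (limma adjusted p = 0.0176), beside 1.95% of all clusters. Itga2b, Gp5 and Gp9 differed by 0.06, 0.04 and 0.09 (limma adjusted p = 0.863, 0.862 and 0.685) and were not called, so the higher platelet mean came mainly from Ppbp. Sperm markers averaged 6.10 to 6.31 in controls, 6.21 to 6.25 after vasectomised and 6.32 to 6.36 after intact mating. Their intact arrays thus also lay above all others. Of these 6 markers limma called 0 in any comparison, and 0 had means above the median of clusters. The part of these cell types in the members' values was not tested.

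Cxcl17, a mucosal chemokine that attracts myeloid cells, lay between 11.90 and 12.23 in controls, 12.25 and 12.56 after vasectomised mating and 12.22 and 12.49 after intact mating. The vasectomised arrays lay above every control array, and intact array 2 fell just below control 3. The difference from controls was 0.34 (SE 0.10, 95% interval 0.13 to 0.55, limma adjusted p = 0.0784) for vasectomised and 0.29 (SE 0.10, 95% interval 0.08 to 0.51, limma adjusted p = 0.0828) for intact mating. Neither passed the threshold for p or for fold, and neither changed with the control pair used (0.34 and 0.29 with either). Gpr35, a receptor to which CXCL17 has been assigned, differed from controls by 0.17 after intact and -0.01 after vasectomised mating and was not called.

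Cxcl13, the B cell chemoattractant, lay between 6.07 and 6.77 on all arrays, with its highest value on intact array 4 and overlapping groups. Its differences from controls were 0.17 (SE 0.11, 95% interval -0.07 to 0.42, limma adjusted p = 0.407) for intact and -0.06 (95% interval -0.30 to 0.19, limma adjusted p = 0.843) for vasectomised mating. Its receptor Cxcr5 differed by -0.04 and -0.09 in the same order and was not called. B cell and plasma cell markers averaged 6.29 to 6.43 in controls, 6.20 to 6.25 after vasectomised and 6.15 to 6.34 after intact mating, and 0 of 7 were called in any comparison by limma (1, 1 and 0 at an unadjusted p under 0.05).

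Other genes of these axes were read from lists that group further receptors and CXC ligands, enzymes that process chemokines together with MIF, inducers of CXCR3 ligands, genes induced by interferon-gamma, and signalling downstream of chemokine receptors. Of 74 listed genes 67 were measured. Against controls, 16 were higher and 1 lower after intact mating (median log2 fold-change 0.13), beside 1.95% and 1.55% of all clusters, and 6 were higher and 2 lower after vasectomised mating (median 0.05), beside 0.987% and 0.439%. The median over all clusters was 0.01 in both. Between the mated groups 1, Nos2, was higher with intact males and 0 were lower, beside 0.394% and 0.402% of all clusters.

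Among further receptors and ligands, Ccrl2, an atypical receptor that binds chemerin, was higher after intact mating (7.81 ± 0.21 against 6.72 ± 0.08 in controls, SD, n = 4), by 2.13-fold (log2 fold-change 1.09, SE 0.18, limma adjusted p = 0.00216). After vasectomised mating it differed by 0.44 (limma adjusted p = 0.215). Ackr4, which scavenges CXCL13 and several CC chemokines, differed by -0.48 (limma adjusted p = 0.00422) after intact and -0.37 (limma adjusted p = 0.039) after vasectomised mating, under the fold threshold in both. In the same order, Ackr1 (0.01 and -0.17), Ackr2 (0.04 and -0.15), Pf4, a platelet chemokine (0.30 and 0.22), and Cxcl15 (-0.26 and -0.28) were not called. Cxcl15 ranged from 4.87 to 7.41 on the control arrays alone.

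Genes that induce CXCR3 ligands were called higher in 4 of 20 measured after intact mating (median 0.20) and in 3 after vasectomised mating (median 0.11), beside 1.95% and 0.987% of all clusters. Tnf, an inflammatory cytokine that acts through NF-kB, was 4.26-fold higher after intact mating (log2 fold-change 2.09, SE 0.27, limma adjusted p = 0.00033) and 2.1-fold higher after vasectomised mating (1.07, SE 0.27, limma adjusted p = 0.0432). Ifne, the interferon made constitutively by reproductive tract epithelium, was 2.11-fold higher after intact (1.08, SE 0.10, limma adjusted p = 2.39e-05) and 1.6-fold higher after vasectomised mating (0.68, SE 0.10, limma adjusted p = 0.00249). The TNF receptor Tnfrsf1b was likewise 2.04-fold and 1.63-fold higher (limma adjusted p = 3.87e-05 and 0.00223), and the interferon-gamma receptor chain Ifngr2 was 1.54-fold higher after intact mating (limma adjusted p = 0.000652). Ifng itself was not called, with a difference of 0.01 (95% interval -0.16 to 0.19, limma adjusted p = 0.958) after intact and 0.06 (95% interval -0.11 to 0.24, limma adjusted p = 0.73) after vasectomised mating.

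Genes known to be induced by interferon-gamma were higher in 7 of 14 measured after intact mating (median 0.58) and in 3 after vasectomised mating (median 0.30), beside 1.95% and 0.987% of all clusters. Nos2, the inducible nitric oxide synthase, was 7.48-fold higher after intact mating (log2 fold-change 2.90, SE 0.29, limma adjusted p = 5.6e-05) and 2.63-fold higher after vasectomised mating (1.39, SE 0.29, limma adjusted p = 0.0192). It was also 2.85-fold higher with intact than with vasectomised males (1.51, SE 0.29, limma adjusted p = 0.0222). Gbp5, an interferon-induced GTPase, was 3.01-fold higher after intact (1.59, SE 0.24, limma adjusted p = 0.00104) and 2.00-fold higher after vasectomised mating (1.00, SE 0.24, limma adjusted p = 0.0353). Iigp1, of another GTPase family, was higher by 0.79 and 0.77, and Cd274, which encodes the checkpoint ligand PD-L1, was 1.96-fold and Gbp3 1.78-fold higher after intact mating. The families of these GTPases hold closely related copies, so their probes may share signal.

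**Figure D4:**
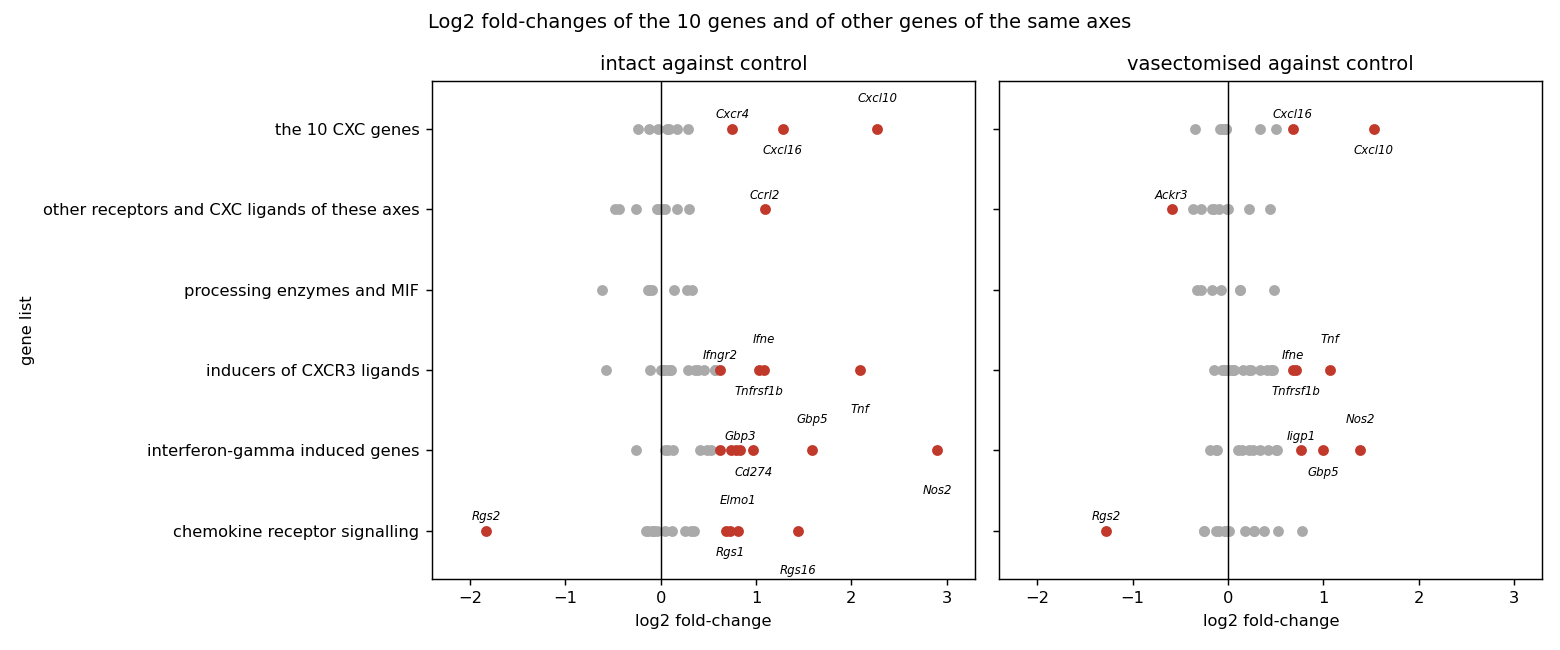
Log2 fold-change against controls (horizontal axis) of the 10 CXC genes and of the measured genes of 5 lists, after intact (left) and vasectomised (right) mating. Red points were called and grey points were not, with up to 4 called genes of each list named. Nos2 (2.90) and Cxcl10 (2.27) lie farthest to the right after intact mating and Rgs2 (-1.83) farthest to the left.

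Signalling genes moved both ways. After intact mating 4 of 16 measured were higher and 1 lower (median 0.08), beside 1.95% and 1.55% of all clusters. After vasectomised mating 0 were higher and 1 lower (median -0.02), beside 0.987% and 0.439%. Each comparison had 7 at an unadjusted p under 0.05. Rgs16, a GTPase-activating protein that shortens chemokine receptor signals, was 2.71-fold higher after intact mating (log2 fold-change 1.44, SE 0.23, limma adjusted p = 0.00185), and Elmo1, which links chemokine receptors to Rac, was 1.76-fold higher (0.81, limma adjusted p = 0.000195). Rgs1 was higher by 0.73 (limma adjusted p = 0.0257). Rgs2, which acts mainly on receptors coupled to Gq, fell by 1.83 on the log2 scale (SE 0.25, limma adjusted p = 6e-04) after intact mating and by 1.28 (SE 0.25, limma adjusted p = 0.0153) after vasectomised mating. Of the processing enzymes and MIF limma called 0 of 7 in the 3 comparisons, with 3, 2 and 2 at an unadjusted p under 0.05. Mif differed by 0.33 (limma adjusted p = 0.022) between intact mating and controls and by 0.39 (limma adjusted p = 0.0281) between the mated groups, under the fold threshold. Dpp4, the peptidase that trims and inactivates CXCR3 ligands, differed by -0.61 between the mated groups (limma adjusted p = 0.084).

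The genes whose log2 values over the 12 arrays were most like those of each called member were found among 19937 others by Pearson correlation, which is given as a description because the arrays share groups and controls. For Cxcl10 they were Fyb, an adaptor of T cells and myeloid cells (r = 0.970), Icam1, a leukocyte adhesion molecule (r = 0.964), and Gbp5 (r = 0.963). For Cxcl16 they were Ly6i (r = 0.986), Noxo1, an organiser of an NADPH oxidase (r = 0.979), and Chil1, a chitinase-like protein (r = 0.979). For Cxcr4 they were Tnfrsf11b, the decoy receptor osteoprotegerin (r = 0.963), Ptgs2, the inducible cyclooxygenase (r = 0.940), and the integrin chain Itgb8 (r = 0.936).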

How the data were processed

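RNA of the scraped endometrial layer (300 ng per array, RNA integrity number above 7) was measured on the arrays. In Partek Genomics Suite the authors applied RMA background correction, adjusted for probe GC content and summarised probes by their mean, and the deposited values are log2 expression of 35556 transcript clusters. Which software versions, batches and scan dates applied is not given in the sources used here. Groups and replicate numbers came from the sample titles, and the per-array columns not used numbered 0.

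Clusters were named through the supplied array annotation (21789 with 1 symbol, 1621 with several, 12146 with none), and 21698 symbols matched the reference gene table, with 0 changed. Where a gene had several clusters, that with the highest mean was used. All clusters entered 1 fit with a mean per group over the 12 arrays with limma 3.58.1 (R 4.3.3). Variances were moderated without trend (9 residual and 3.26 prior degrees of freedom), contrasts were two-sided, and p-values were adjusted by Benjamini-Hochberg over all clusters. Thresholds followed the methods of the study. Code was tested on simulated data. Precision is limited by 4 arrays per group.

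The members, gene lists, marker lists and alternatives were chosen with earlier results of these data known, among them the pairing of the control arrays. Besides the 10 members, the text names the first pathway list in full, the called genes of each other pathway list with the largest differences in size (at most 4), and the 3 genes most alike to each called member. Adam10, Adam17, Ifng, Iigp1, Mif, Dpp4 and the marker genes were named after their values were seen. Alternatives changed the normalization (quantile, or median centring), the moderation (trend and robust options, or none), the weights (by array), the design (a replicate block, or a fit of the 2 groups alone), the clusters (dim ones, with a mean under 7.28, removed), the correction (over symbols, or over 1 cluster per gene), the fold threshold (2, or none) and the arrays (either control pair alone, or each array left out). Promoters came from a RefSeq table on GRCm38.p6. Data of the study from qPCR, protein assays, culture and flow cytometry were not analysed here.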

Additional observations from a re-analysis of the deposited data

Results flagged for a closer look

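Among 60 sets of 4 arrays tested, the members and further receptors and ligands each in the 3 groups, 3 held an array that stood apart from the other 3 of its group by Dixon's criterion, which chance meets in about 1 in 20 sets. Cxcl12 was 6.77 on intact array 1, against 7.08 to 7.11 on the others (gap over range 0.911). The atypical receptor Ackr2 was 6.94 on intact array 3, against 6.77 to 6.79 (0.871). Gpr35 was 6.86 on control array 4, against 7.05 to 7.08 (0.831).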

How the results depend on the processing

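Of 765 recomputed differences of the members, 692 kept their direction and call, 26 lost a call, 13 gained one and 34 changed sign. The intact calls of Cxcl10 (1.67 to 2.88, limma adjusted p 0.00138 to 0.0271) and Cxcl16 (1.07 to 1.48, limma adjusted p 9.58e-05 to 0.00238) held under all 26 alternatives, and that of Cxcr4 (0.44 to 1.05) under 24, lost with controls 1 and 2 alone and with a 2-fold threshold. Leaving out each array gave 3 members higher for intact against control, 0 to 3 for vasectomised against control and 0 to 1 (Cxcl16, without control 2 or 4) between the mated groups, and pathway genes at 13 to 16, 3 to 7 and 0 to 4 higher and 1 to 2, 1 to 2 and 0 to 1 lower. For vasectomised against control, members higher numbered 0 without variance moderation, with only the 2 groups compared and with controls 1 and 2 alone, and 1 with array weights or a 2-fold threshold. Same-numbered arrays did not deviate together (correlations -0.26 to 0.20, 2 of 12 over 0.1), and with the number as a replicate block that count was 0 and pathway genes lower numbered 1. With controls 1 and 2 alone 1 member, Cxcl14, was lower in either comparison with controls. Between the mated groups 1 member, Cxcl16, was higher under median centring, array weights, a fit of these groups alone, removal of dim clusters, correction over 1 cluster per gene and either control pair. Pathway genes higher for intact against control were 7 at a 2-fold threshold and 26 with no fold threshold, and lower 2 under quantile normalization or either control pair and 4 with no fold threshold. For vasectomised against control, pathway genes higher were 3 without moderation or at a 2-fold threshold, 12 with no fold threshold and 2 with controls 1 and 2 alone, and lower 1 without moderation, at a 2-fold threshold or with controls 3 and 4 alone. Between the mated groups pathway genes higher were 0 without moderation, 4 with no fold threshold and 2 with array weights, a fit of these groups alone, removal of dim clusters or either control pair, and lower 1 under these settings and with no fold threshold. These counts are given without the share of all clusters called in the same fit. Signs turned for uncalled differences. Cxcl9 gave 0.00 for intact and 0.01 for vasectomised against control with array weights, and 0.01 under quantile normalization and 0.02 under median centring between the mated groups. Cxcl11 gave -0.01 for intact with controls 1 and 2 alone and 0.06 for vasectomised with controls 3 and 4 alone, Cxcl13 gave 0.04 for vasectomised with controls 1 and 2 alone, and Cxcl12 (0.23 and 0.33) and Cxcl14 (0.40 and 0.30) turned with controls 3 and 4 alone. Leaving out arrays, Cxcl9 spanned -0.08 to 0.03, -0.07 to 0.04 and -0.04 to 0.02 for intact against control, vasectomised against control and intact against vasectomised, Cxcl11 -0.01 to 0.16 and -0.09 to 0.03 in the first 2, Cxcl12 -0.25 to 0.02, -0.15 to 0.12 and -0.18 to 0.02, Cxcl13 -0.13 to 0.01 and Cxcr3 -0.12 to 0.00 for vasectomised, Cxcl14 -0.47 to 0.00 for intact and -0.01 to 0.25 between the mated groups, and Cxcl17 -0.10 to 0.01 there. The cause of these changes was not tested. Removal of dim clusters gave no value for 5 members, and 0 members had a second cluster. Dim signals and 4 pools per group limit what could be detected.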
